A study of Homo sapiens with 16 samples.

Results

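Glycolysis and the transcriptional response to low oxygen were followed in HL-60, an established human promyelocytic leukaemia line that can be made to differentiate into neutrophil-like cells. The 34 genes described here were named by symbol as members of these pathways, with earlier results of these data known, and all 34 were found among the 23575 symbols of the deposited count table. They cover glucose uptake (SLC2A1, SLC2A3), the entry of glucose into the pathway (HK1, HK2, HK3, GPI), the phosphofructokinase step and its regulators (PFKL, PFKM, PFKP, PFKFB3, PFKFB4), the lower pathway (ALDOA, ALDOC, TPI1, GAPDH, PGK1, PGAM1, ENO1, ENO2, PKM), the fate of pyruvate and lactate (LDHA, LDHB, SLC16A3, PDK1), oxygen sensing (HIF1A, EGLN1, EGLN3) and other genes induced by hypoxia (VEGFA, ADM, BNIP3, BNIP3L, NDRG1, P4HA1, ANKRD37). RNA was sequenced from wild-type differentiated cells (dHL-60) left untreated or given lipoteichoic acid (LTA) of Staphylococcus aureus at 1 or 10 µg/ml, for 4 or 24 h, with 2 libraries in each of these 6 groups. Wild-type undifferentiated cells (uHL-60) were left untreated or given 1 µg/ml for 4 or 24 h, with 1 library in each of these 4 groups. LTA is a cell wall polymer of Gram-positive bacteria. All libraries come from the 1 cell line, and no source used here gives the agent used for differentiation.

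Glycolysis splits glucose to pyruvate in the cytosol and gives ATP without oxygen. Neutrophils have few mitochondria and draw most of their ATP from it. When oxygen is short, prolyl hydroxylases of the EGLN family no longer mark the HIF1A protein for destruction, and HIF1A with its partner ARNT binds the core motif ACGTG or GCGTG and raises transcription of glucose transporters, glycolytic enzymes, angiogenic factors and mitophagy receptors. In myeloid cells bacterial products also raise HIF1A when oxygen is plentiful, through NF-κB.

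The promoters of the set carry this motif to different extents. RefSeq promoter windows (build GRCh38.p14, 250 bases before to just after a start site) were found for 30 of the 34 members. A gene can have several start sites, some of them inside the gene. For 24 of the 30 at least 1 window held ACGTG or GCGTG on either strand. Of the 57 windows of members, 56.1% held either motif, against 43.2% of all 35116 windows in the table. For ACGTG alone the shares were 36.8% against 18.5%, and for GCGTG alone 29.8% against 32.2%. Shown are the 6 members with at least 3 matches in 1 stretch of 60 bases, anywhere in the 250 bases upstream of a start. The motif on either strand is in capitals. The stretches begin between base -226 (PGK1) and base -61 (PFKP) relative to the start site of their window. They need not hold the most matches, since ALDOC held 5 more widely spaced in its window and is not shown. A CACGTG run holds ACGTG on both strands and counts as 2 matches.
HK2: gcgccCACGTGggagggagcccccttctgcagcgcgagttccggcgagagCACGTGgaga
PFKP: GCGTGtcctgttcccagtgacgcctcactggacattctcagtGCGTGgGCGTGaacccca
PGK1: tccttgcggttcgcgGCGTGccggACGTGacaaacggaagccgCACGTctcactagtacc
LDHA: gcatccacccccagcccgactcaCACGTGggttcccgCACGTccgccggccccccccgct
BNIP3: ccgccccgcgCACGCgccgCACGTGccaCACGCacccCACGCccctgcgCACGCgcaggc
ANKRD37: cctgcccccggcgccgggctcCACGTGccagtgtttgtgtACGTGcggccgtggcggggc
The stretches lie at chr2:74834971-74835030 (plus strand, HK2), chr10:3104548-3104607 (plus strand, PFKP), chrX:78104022-78104081 (plus strand, PGK1), chr11:18394453-18394512 (plus strand, LDHA), chr10:131982017-131982076 (minus strand, BNIP3) and chr4:185396658-185396717 (plus strand, ANKRD37). Those of HK2 and PFKP lie at start sites inside the gene, since RefSeq has these genes begin at chr2:74834127 and chr10:3067548. A match is a run of letters and not evidence of binding.

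Library totals ran from 9653374 to 20157081 counts. Levels are given as CPM, a gene's counts relative to the library total scaled by TMM factors. Nothing in the labels says that the 2 libraries of a dHL-60 group came from separate cultures, and the p-values therefore reflect the spread between these libraries alone, which may be technical. Differences were tested with edgeR's quasi-likelihood F test and adjusted by the Benjamini-Hochberg method over all genes tested. A gene is called higher or lower at an adjusted p under 0.05, and values after ± are standard errors of log2 fold changes. Of the members 33 passed the filter on low counts in dHL-60, and EGLN3 did not. Counting of near-identical copies is uncertain. The RefSeq table names 65 pseudogene copies of GAPDH, 46 of BNIP3 and 13 of PGAM1, and SLC2A3 has a close paralogue in SLC2A14. Fewer cells of a type and less RNA per cell cannot be told apart in bulk libraries.

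In dHL-60 the members answered LTA in different ways at 4 and at 24 h. After 4 h with 1 µg/ml, 12 of the 33 tested members were higher and 4 were lower, while 38.7% of all genes tested were called in this comparison (18.7% higher, 20.1% lower). With 10 µg/ml at 4 h, 11 were higher and 3 lower, with 41.3% of all genes called (20% higher, 21.3% lower). The median log2 fold change of the tested members was 0.03 and 0.02 at 4 h, beside -0.04 over all genes tested at either dose. After 24 h with 1 µg/ml, 22 members were higher and 0 were lower, with 21.2% of all genes called (13.9% higher, 7.26% lower). At 10 µg/ml for 24 h, 26 were higher and 0 lower, with 42.6% of all genes called (23.6% higher, 19% lower). The medians at 24 h were 0.73 and 0.93, beside 0.01 and -0.01 over all genes. At an unadjusted p under 0.05 the count of lower members at 24 h was 1 with 1 µg/ml and 0 with 10 µg/ml, and DESeq2 called 0 lower at either dose. The comparisons at the same time share their control libraries, so their counts are not independent of each other. Upper-quartile scaling shifted the all-gene median at 4 h by -0.12 (1 µg/ml) and -0.13 (10 µg/ml). With it 10 members were higher and 5 lower at 10 µg/ml, so that 66.7% of the called members were higher in place of 78.6%. ALDOA lost its call there (log2 0.35) and PFKP (log2 -0.46) and PGAM1 (log2 -0.43) were called lower.

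Marker genes moved with these groups. The summed level of 10 neutrophil markers was 4640 to 6320 CPM in untreated dHL-60 at 4 h and 1360 to 1400 CPM at 24 h, and at 24 h it was 6520 to 6750 CPM with 1 µg/ml and 12300 to 13400 CPM with 10 µg/ml. FCGR3B, a marker of mature neutrophils, had a group mean of at most 1.29 CPM in any group. The 7 promyelocyte markers summed to 17300 to 22500 CPM in untreated cells at 24 h, 6400 to 9490 CPM with 1 µg/ml and 4870 to 6060 CPM with 10 µg/ml. The 11 monocyte and macrophage markers went from 171 to 178 CPM up to 672 to 744 CPM and 1380 to 1500 CPM in the same order, most of it CD14, while MRC1 and MSR1 had group means of at most 0.0977 CPM. At 24 h 8 lymphocyte markers summed to 10.8 to 11.7 CPM without LTA and to 114 to 153 and 211 to 292 CPM with it, most of it NKG7, with CD3D at 0 in all 6 libraries. At 4 h, 8 erythroid and platelet markers summed to 35.7 to 39.7 CPM in untreated cells, 1.71 to 2.05 CPM with 1 µg/ml and 23 to 27 CPM with 10 µg/ml. HBB made up most of the sum in untreated cells and at 10 µg/ml (means of 33.5 and 22 CPM) but had a mean of 0.324 CPM at 1 µg/ml. The neutrophil markers overlapped between treated and untreated libraries at 4 h, while the lymphocyte markers went from 24.1 to 25.8 CPM up to 52.3 to 57.8 and 61.4 to 63.7 CPM, most of it NKG7. The monocyte and macrophage markers summed at 4 h to 488 to 653 CPM in untreated cells and lay above that with LTA, at 745 to 764 CPM with 1 µg/ml and 654 to 743 CPM with 10 µg/ml. The higher sums came from CD14 (means of 509, 742 and 685 CPM in the same order). CSF1R (57.3, 10.6 and 9.98 CPM) and CD1C (4.08, 0.643 and 0.482 CPM) went the other way, and the rest of that list had means of at most 0.813 CPM at 4 h. The promyelocyte markers summed at 4 h to 9100 to 11900 CPM without LTA and 8460 to 9140 CPM with 1 µg/ml, which overlapped, and to 7460 to 8560 CPM with 10 µg/ml, below the untreated libraries. KIT, a receptor of immature myeloid cells on that list, had means of 86.1, 13.5 and 13.2 CPM in the same order. The part of these markers in the results below was not tested.

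**Figure D1:**
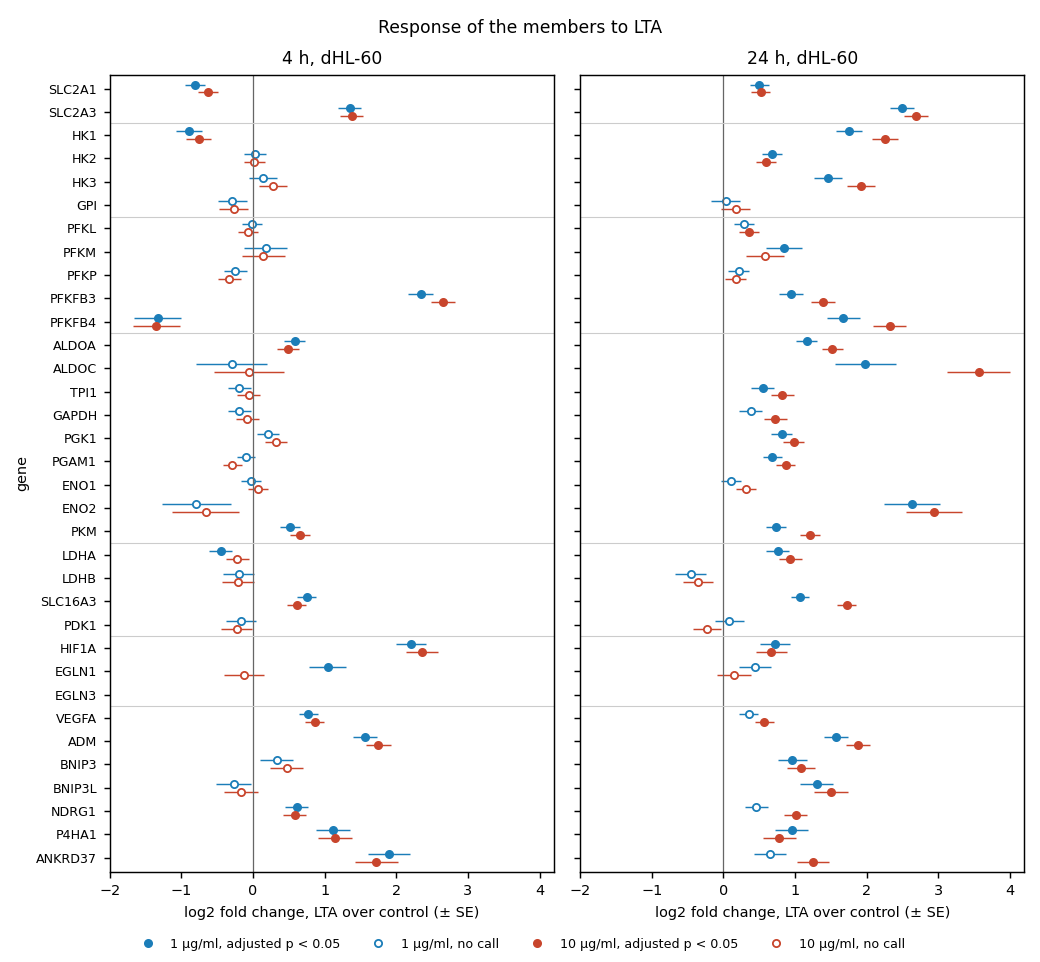
Log2 fold change of LTA over control for each member in dHL-60 at 4 h (left) and 24 h (right), with bars for the standard error; blue is 1 µg/ml, red 10 µg/ml, and filled points have an adjusted p under 0.05. Points lie on both sides of 0 at 4 h, while at 24 h all filled points lie above 0; EGLN3 was not tested.

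The 2 glucose transporters of the set moved in opposite directions at 4 h. SLC2A3 (GLUT3), the high-affinity transporter of neurons and leukocytes, stood at 129 and 115 CPM in untreated dHL-60 at 4 h, 291 and 327 CPM with 1 µg/ml and 320 and 307 CPM with 10 µg/ml. Its treated libraries lay above the controls, with log2 fold changes of 1.35 ± 0.16 (adjusted p = 2.11e-05) and 1.38 ± 0.16 (adjusted p = 1.53e-05). SLC2A1 (GLUT1), the transporter found in most proliferating cells, went from 43.8 and 45.6 CPM to 23.9 and 27.1 CPM with 1 µg/ml and to 28.7 and 28.5 CPM with 10 µg/ml. All 4 treated libraries were below both controls, at -0.81 ± 0.14 (adjusted p = 0.000428) and -0.63 ± 0.14 (adjusted p = 0.00238).

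At 24 h both transporters were higher with LTA. SLC2A3 was at 92.9 and 77.1 CPM in untreated cells, 440 and 505 CPM with 1 µg/ml and 465 and 613 CPM with 10 µg/ml, log2 fold changes of 2.49 ± 0.17 (adjusted p = 4.49e-07) and 2.69 ± 0.17 (adjusted p = 6.27e-08). SLC2A1 was at 59.9 and 66.6 CPM in untreated cells, 85.2 and 91.7 CPM with 1 µg/ml and 81.3 and 96.2 CPM with 10 µg/ml. These differences were 0.50 ± 0.13 (adjusted p = 0.014) and 0.52 ± 0.13 (adjusted p = 0.00574). The 24 h call of SLC2A1 at 1 µg/ml was lost without control replicate 1 (0.43), LTA replicate 1 (0.54) or LTA replicate 2 (0.45), and at 10 µg/ml without control replicate 1 (0.45) or LTA replicate 2 (0.39).

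The enzymes that trap glucose in the cell were divided by isoform. HK1, the hexokinase of most adult tissues, was at 35 and 29.7 CPM in untreated cells at 4 h and at 18.7 and 16.2 CPM with 1 µg/ml, and at 20.8 and 16.9 CPM with 10 µg/ml. It was lower at both doses (-0.89 ± 0.18, adjusted p = 0.00181, and -0.76 ± 0.18, adjusted p = 0.00442), the second call being lost without LTA replicate 2 (-0.63). At 24 h the order was the opposite, with 13.4 and 16.4 CPM in untreated cells, 53.6 and 45.5 CPM at 1 µg/ml and 76.5 and 62.2 CPM at 10 µg/ml. HK1 was then higher by 1.75 ± 0.18 (adjusted p = 1.47e-05) and 2.25 ± 0.18 (adjusted p = 6.16e-07).

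HK2, the hexokinase that hypoxia and growth signals induce, overlapped between treated and untreated libraries at 4 h (log2 0.03 ± 0.15 and 0.02 ± 0.15, adjusted p = 0.88 and 0.931). At 24 h it was at 241 and 226 CPM without LTA, 393 and 348 CPM with 1 µg/ml and 331 and 360 CPM with 10 µg/ml. It was higher by 0.68 ± 0.14 (adjusted p = 0.00448) and 0.59 ± 0.14 (adjusted p = 0.00501), and the call at 1 µg/ml was lost without LTA replicate 1 (0.58). HK3, the hexokinase of myeloid cells, also overlapped at 4 h, with 256 and 184 CPM in the controls and 200 to 286 CPM in the treated libraries. At 24 h HK3 was at 76.5 and 71.8 CPM in untreated cells, 206 and 199 CPM with 1 µg/ml and 282 and 270 CPM with 10 µg/ml, log2 fold changes of 1.46 ± 0.19 (adjusted p = 0.00011) and 1.92 ± 0.19 (adjusted p = 4.22e-06). GPI, which turns glucose-6-phosphate into fructose-6-phosphate, was called in none of the 4 comparisons (log2 -0.29 to 0.17). Leaving out control replicate 2 (-0.55) or LTA replicate 1 (-0.61) at 4 h and 1 µg/ml gave a call of lower for GPI.

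Around the phosphofructokinase step, the regulators differed more than the enzyme. PFKFB3 and PFKFB4 make fructose-2,6-bisphosphate, the main activator of phosphofructokinase. PFKFB3 had the largest fold change of all members at 4 h. Its level was 35.7 and 42.9 CPM in untreated cells, 174 and 225 CPM with 1 µg/ml and 209 and 279 CPM with 10 µg/ml, differences of 2.34 ± 0.17 (adjusted p = 3.03e-07) and 2.65 ± 0.17 (adjusted p = 1.02e-07). At 24 h PFKFB3 was at 26.9 and 27.4 CPM without LTA, 52.3 and 50.9 CPM at 1 µg/ml and 67.2 and 72.9 CPM at 10 µg/ml, higher by 0.94 ± 0.17 (adjusted p = 0.00127) and 1.39 ± 0.17 (adjusted p = 2.07e-05).

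PFKFB4 went the other way at 4 h. It was at 5.21 and 6.07 CPM in untreated cells, 1.96 and 2.44 CPM with 1 µg/ml and 1.66 and 2.70 CPM with 10 µg/ml. It was lower by -1.33 ± 0.33 (adjusted p = 0.00553) and -1.35 ± 0.33 (adjusted p = 0.00484), the second call being lost without LTA replicate 1 (-1.05). At 24 h the PFKFB4 level was 12.4 and 7.92 CPM in untreated cells, 27.4 and 37.3 CPM with 1 µg/ml and 45.8 and 54.9 CPM with 10 µg/ml. All treated libraries then lay above the controls, by 1.67 ± 0.23 (adjusted p = 0.000177) and 2.32 ± 0.23 (adjusted p = 4.21e-06).

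Few calls were made among the phosphofructokinase subunits themselves. PFKL, the liver-type subunit and the most abundant of the 3 here, ranged from 312 to 444 CPM over the 12 dHL-60 libraries. It was called only at 10 µg/ml for 24 h (0.36 ± 0.14, adjusted p = 0.0466), and this call was lost without any 1 of the 4 libraries compared (0.23 to 0.46) and with RLE size factors (0.35), upper-quartile scaling (0.28) or no filter (0.35). PFKM, the muscle-type subunit, was at most 6.95 CPM in dHL-60 and was called at 1 µg/ml for 24 h (0.85 ± 0.25, adjusted p = 0.0275), but not without control replicate 1 (0.62), LTA replicate 1 (0.95) or LTA replicate 2 (0.74), and not by DESeq2 (0.83). PFKP, the platelet-type subunit, was called in none of the 4 (log2 -0.33 to 0.21), except as lower at 4 h and 10 µg/ml without LTA replicate 2 (-0.57) or with upper-quartile scaling.

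Of the lower pathway, 2 of 9 members were higher at 4 h at either dose, ALDOA and PKM. This is near the share of all genes called higher (18.7% at 1 µg/ml and 20% at 10 µg/ml). PKM, the pyruvate kinase that makes pyruvate and ATP, was at 1870 and 1660 CPM in untreated cells, 2520 and 2500 CPM at 1 µg/ml and 2640 and 2880 CPM at 10 µg/ml. Its differences were 0.51 ± 0.14 (adjusted p = 0.0118) and 0.66 ± 0.14 (adjusted p = 0.00227), and the first call was lost without control replicate 2 (0.41) or LTA replicate 1 (0.49). ALDOA, the aldolase of muscle and most cells, went from 31.3 and 29.4 CPM to 42 and 48.3 CPM and to 43.2 and 40.9 CPM, higher by 0.58 ± 0.15 (adjusted p = 0.00805) and 0.49 ± 0.15 (adjusted p = 0.0194). The ALDOA call was lost at 1 µg/ml without control replicate 2 (0.52) or LTA replicate 2 (0.49), and at 10 µg/ml without control replicate 2 (0.43), LTA replicate 1 (0.45) or LTA replicate 2 (0.52). ALDOA overlaps the coding gene LOC112694756 in RefSeq. Its level was 22 to 73.6 CPM in dHL-60 and 1510 to 1850 CPM in uHL-60. ALDOA is counted differently in the uHL-60 columns, and it is left out of every comparison between the cell states. Its changes within dHL-60 rest on the dHL-60 counts alone.

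At 24 h, 7 of the 9 were higher at 1 µg/ml and 8 at 10 µg/ml, beside 13.9 and 23.6% of all genes called higher. The largest changes were in ENO2 and ALDOC, the brain-type isoforms of enolase and aldolase. ENO2 was at 4.47 and 3.51 CPM without LTA, 18.4 and 31.2 CPM at 1 µg/ml and 20.2 and 40.3 CPM at 10 µg/ml, differences of 2.63 ± 0.39 (adjusted p = 0.000334) and 2.94 ± 0.39 (adjusted p = 5.69e-05). ALDOC was at 7.81 and 7.47 CPM, 24.7 and 35.3 CPM, and 79.1 and 97.8 CPM in the same order, higher by 1.98 ± 0.43 (adjusted p = 0.00522) and 3.56 ± 0.44 (adjusted p = 2.86e-05). The 2 untreated libraries at 4 h differed for ALDOC (12.6 and 4.28 CPM) and for ENO2 (3.47 and 6.93 CPM), and neither was called at 4 h, except ENO2 as lower at 1 µg/ml with no filter on low counts (-0.79).

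The other enzymes of the lower pathway had smaller log2 fold changes at 24 h. PGK1, which makes the first ATP of the pathway, was at 731 and 613 CPM without LTA, 1090 and 1240 CPM with 1 µg/ml and 1180 and 1430 CPM with 10 µg/ml (0.81 ± 0.15, adjusted p = 0.00183, and 0.98 ± 0.15, adjusted p = 0.000179). ALDOA (1.16 and 1.52), PKM (0.73 and 1.21), PGAM1 (0.68 and 0.87) and TPI1 (0.55 and 0.82) were also higher at both doses on the log2 scale. TPI1 lost its call at 1 µg/ml without control replicate 1 (0.57), control replicate 2 (0.53) or LTA replicate 2 (0.38). GAPDH, often used as a reference gene, was at 5500 and 5880 CPM without LTA, 6420 and 8220 CPM at 1 µg/ml and 9120 and 9310 CPM at 10 µg/ml. It was called at 10 µg/ml (0.72 ± 0.16, adjusted p = 0.0032) and not at 1 µg/ml (0.38 ± 0.16, adjusted p = 0.124). ENO1, the main enolase, was called at neither dose (0.11 and 0.31).

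At the branch from pyruvate, LDHA makes lactate and SLC16A3 (MCT4) carries it out of the cell. LDHA was at 369 and 311 CPM in untreated cells at 4 h, 257 and 240 CPM with 1 µg/ml and 289 and 287 CPM with 10 µg/ml. It was lower at 1 µg/ml (-0.45 ± 0.16, adjusted p = 0.0382) and not called at 10 µg/ml (-0.22 ± 0.16, adjusted p = 0.282). The call was lost without control replicate 1 (-0.30), LTA replicate 1 (-0.51) or LTA replicate 2 (-0.39). At 24 h LDHA was at 884 and 717 CPM, 1200 and 1490 CPM, and 1410 and 1590 CPM, higher by 0.76 ± 0.16 (adjusted p = 0.0039) and 0.93 ± 0.16 (adjusted p = 0.000403), the first being lost without control replicate 2 (0.61).

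SLC16A3 was higher in all 4 comparisons. At 4 h it was at 821 and 728 CPM without LTA, 1330 and 1270 CPM with 1 µg/ml and 1130 and 1200 CPM with 10 µg/ml (0.75 ± 0.13, adjusted p = 0.000465, and 0.61 ± 0.13, adjusted p = 0.002). At 24 h the values were 322 and 345 CPM, 687 and 702 CPM, and 1110 and 1040 CPM (1.07 ± 0.13, adjusted p = 6.16e-05, and 1.72 ± 0.13, adjusted p = 4.11e-07). LDHB, the subunit that favours turning lactate back to pyruvate, was called in none of the 4 (log2 -0.46 to -0.20), except as lower at 1 µg/ml for 24 h without LTA replicate 2 (-0.86). PDK1, a kinase that shuts pyruvate dehydrogenase, was called in none (log2 -0.23 to 0.08), except as lower at 10 µg/ml for 24 h without LTA replicate 2 (-0.61).

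HIF1A, the oxygen-regulated subunit of the hypoxia-inducible factor, had the second largest fold change of the members at 4 h. It was at 31.1 and 40.5 CPM in untreated cells, 149 and 179 CPM with 1 µg/ml and 209 and 154 CPM with 10 µg/ml, higher by 2.20 ± 0.21 (adjusted p = 3.74e-06) and 2.36 ± 0.22 (adjusted p = 1.91e-06). At 24 h it was at 29.6 and 24.7 CPM without LTA, 50.1 and 38.9 CPM at 1 µg/ml and 35.3 and 49.7 CPM at 10 µg/ml, differences of 0.72 ± 0.21 (adjusted p = 0.026) and 0.67 ± 0.21 (adjusted p = 0.0204). The 24 h calls were lost without control replicate 1 (0.87 at 1 µg/ml), control replicate 2 (0.59 and 0.54), LTA replicate 1 (0.52 at 1 µg/ml) or LTA replicate 2 (0.41 at 10 µg/ml). These are RNA levels, and HIF1A is regulated largely through the stability of its protein, which was not measured.

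EGLN1 (PHD2) and EGLN3 (PHD3) are hydroxylases that mark HIF1A for destruction. EGLN1 was at 4.19 and 4.70 CPM in untreated cells at 4 h and 8.82 and 9.45 CPM with 1 µg/ml (1.04 ± 0.26, adjusted p = 0.00643). With 10 µg/ml it was at 4.01 and 4.10 CPM, below both controls and without a call (-0.12 ± 0.28, adjusted p = 0.764). At 24 h EGLN1 was called at neither dose (0.44 and 0.15). EGLN3 had 0 counts in the 6 dHL-60 libraries at 4 h, where 3 counts would make 0.0474 CPM. At 24 h the untreated pair held 3 counts together, the 1 µg/ml pair 19 and the 10 µg/ml pair 21. The ratios over control were 7.05 (95% exact interval 2.08 to 37.2) and 8.52 (2.54 to 44.6), intervals that cover counting error only.

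Among the other hypoxia genes, 5 of 7 were higher at 4 h at both doses, beside 18.7 and 20% of all genes called higher. ADM, adrenomedullin, a vasodilator peptide, was at 22.9 and 17.5 CPM without LTA, 61.5 and 57.6 CPM at 1 µg/ml and 63.2 and 71.1 CPM at 10 µg/ml (1.56 ± 0.17, adjusted p = 1.01e-05, and 1.75 ± 0.17, adjusted p = 3.2e-06). At 24 h ADM was at 15 and 13.9 CPM, 39.1 and 46.3 CPM, and 46.9 and 57.8 CPM, higher by 1.57 ± 0.17 (adjusted p = 2.28e-05) and 1.88 ± 0.17 (adjusted p = 1.82e-06). VEGFA, the growth factor of blood vessels, was at 148 and 146 CPM without LTA at 4 h, 262 and 237 CPM at 1 µg/ml and 256 and 272 CPM at 10 µg/ml (0.77 ± 0.13, adjusted p = 0.000353, and 0.86 ± 0.13, adjusted p = 0.000131). At 24 h VEGFA was at 80.3 and 75.9 CPM, 96 and 102 CPM, and 104 and 124 CPM, and it was called at 10 µg/ml (0.57 ± 0.13, adjusted p = 0.00292) but not at 1 µg/ml (0.35 ± 0.13, adjusted p = 0.0685).

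ANKRD37, an ankyrin repeat gene and known HIF1A target, was at 1.12 and 1.2 CPM without LTA at 4 h, 4.90 and 3.94 CPM with 1 µg/ml and 4.10 and 3.54 CPM with 10 µg/ml (1.90 ± 0.29, adjusted p = 0.000194, and 1.72 ± 0.30, adjusted p = 0.000436). P4HA1, a collagen prolyl hydroxylase, was at 24.4 and 20.9 CPM without LTA and 41.1 to 57.6 CPM in the 4 treated libraries (1.12 ± 0.24, adjusted p = 0.00264, and 1.14 ± 0.24, adjusted p = 0.00208). NDRG1, a stress-response gene, was higher by 0.61 and 0.58 on the log2 scale at 4 h. Its calls were lost without control replicate 1 (0.54 at 1 µg/ml and 0.51 at 10 µg/ml) or LTA replicate 2 (0.47 and 0.54). BNIP3 and BNIP3L, receptors that direct mitochondria to autophagy, were not called at 4 h (log2 -0.27 to 0.47).

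At 24 h BNIP3 was at 50.5 and 35.8 CPM without LTA, 73.3 and 93.4 CPM at 1 µg/ml and 77.5 and 102 CPM at 10 µg/ml (0.96 ± 0.20 and 1.08 ± 0.20, adjusted p = 0.00393 and 0.000794). BNIP3L was at 42.9 and 29.6 CPM, 89.7 and 87.4 CPM, and 79.1 and 122 CPM in the same order (1.30 ± 0.23 and 1.5 ± 0.24, adjusted p = 0.00149 and 0.000215). BNIP3 lost its call at 1 µg/ml without control replicate 2 (0.73). P4HA1 was higher by 0.95 ± 0.23 and 0.78 ± 0.23 on the log2 scale, and its calls were lost without control replicate 2 (0.71 and 0.54), LTA replicate 1 (0.89 at 1 µg/ml) or LTA replicate 2 (0.48 at 10 µg/ml). NDRG1 (1.01) and ANKRD37 (1.25) were called at 10 µg/ml and not at 1 µg/ml (0.46 and 0.65).

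**Figure D2:**
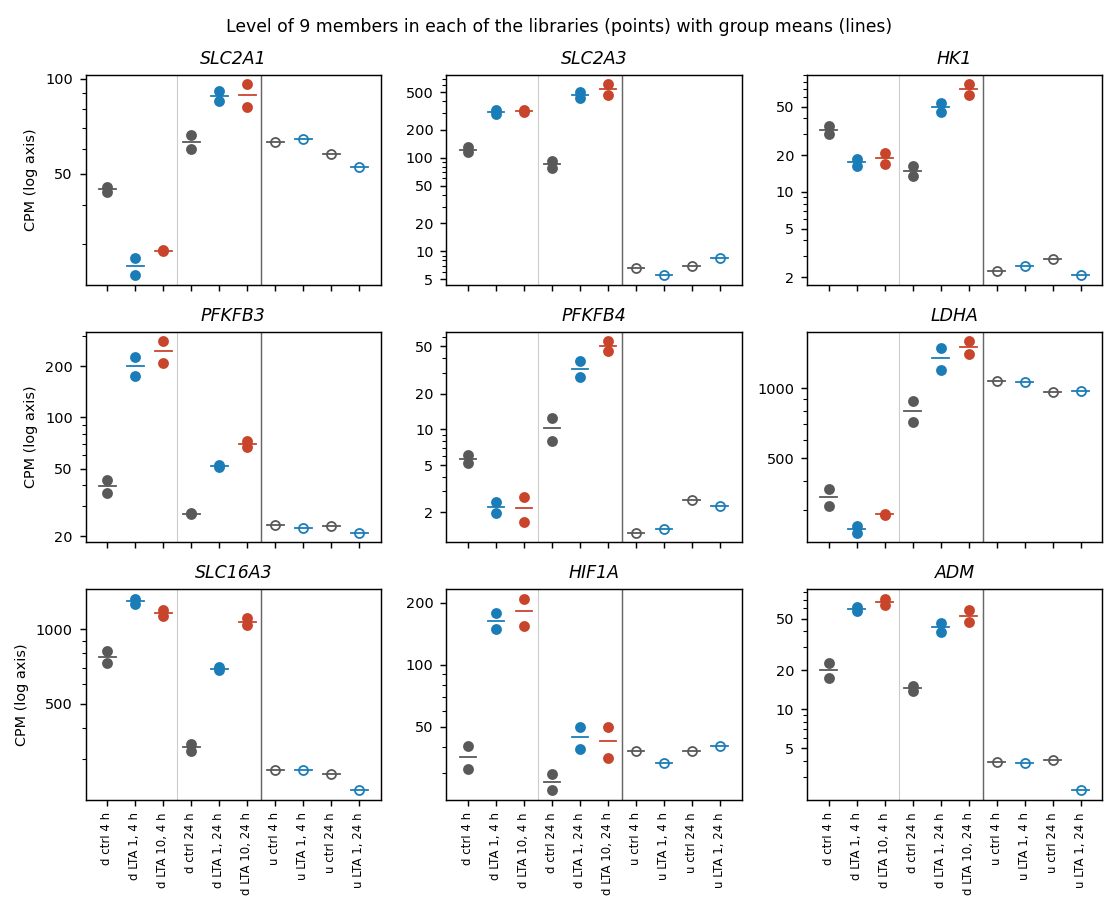
CPM on a log axis of 9 members in every library, by group (d, dHL-60, filled points; u, uHL-60, open points; grey untreated, blue 1 µg/ml, red 10 µg/ml LTA), with lines at group means. In dHL-60 SLC2A1, HK1 and PFKFB4 lie below their controls at 4 h and above them at 24 h. In uHL-60 the treated and untreated points of each time lie close together for most of the genes, while ADM and HK1 lie lower with LTA at 24 h.

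The difference between the 24 h and the 4 h response was tested itself, as an interaction. At 1 µg/ml the response of 12 members was greater at 24 h and that of 3 was smaller, with 20.7% of all genes called in this comparison (13.3% greater, 7.41% smaller). At 10 µg/ml 17 were greater and 2 smaller, with 33.7% of all genes called (19.7% greater, 14% smaller). The median difference of the members was 0.56 and 0.57 on the log2 scale, beside 0.04 over all genes at either dose. SLC2A1, HK1 and PFKFB4 were called lower at 4 h and higher at 24 h at both doses, and LDHA at 1 µg/ml. PFKFB4 differed between times by 3.0 ± 0.40 (adjusted p = 0.000178) at 1 µg/ml and 3.67 ± 0.40 (adjusted p = 2.29e-05) at 10 µg/ml. HK1 differed by 2.64 ± 0.26 (adjusted p = 1.97e-05) and 3.02 ± 0.26 (adjusted p = 3.65e-06), and SLC2A1 by 1.30 ± 0.19 (adjusted p = 0.000329) and 1.14 ± 0.19 (adjusted p = 0.000532). LDHA differed by 1.21 ± 0.22 (adjusted p = 0.00193) and 1.15 ± 0.22 (adjusted p = 0.00167).

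Some members without a call at 4 h also differed between the times. ENO2 did so by 3.43 ± 0.61 (adjusted p = 0.00151) and 3.60 ± 0.61 (adjusted p = 0.000664), ALDOC by 2.29 ± 0.66 (adjusted p = 0.0258) and 3.61 ± 0.65 (adjusted p = 0.00101), BNIP3L by 1.56 ± 0.34 (adjusted p = 0.00496) and 1.67 ± 0.34 (adjusted p = 0.00218), and HK3 by 1.31 ± 0.26 (adjusted p = 0.00326) and 1.64 ± 0.26 (adjusted p = 0.000458). SLC2A3, already higher at 4 h, gained 1.14 ± 0.22 (adjusted p = 0.00274) and 1.31 ± 0.22 (adjusted p = 0.000705). The response was smaller at 24 h for HIF1A (-1.48 ± 0.30 and -1.68 ± 0.30, adjusted p = 0.00328 and 0.000884) and PFKFB3 (-1.41 ± 0.23 and -1.25 ± 0.23, adjusted p = 0.000839 and 0.00122), and at 1 µg/ml for ANKRD37 (-1.26 ± 0.37, adjusted p = 0.0286). No difference between times was called for ADM (0.01 ± 0.23 and 0.13 ± 0.24, adjusted p = 0.982 and 0.7) or VEGFA (-0.42 ± 0.18 and -0.29 ± 0.18, adjusted p = 0.126 and 0.239).

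Several of these calls rested on single libraries. HK2 (0.65 ± 0.20, adjusted p = 0.0392, and 0.57 ± 0.20, adjusted p = 0.0451) lost its call at 1 µg/ml without any library but control replicate 2 at 4 h (0.51 to 0.73), and at 10 µg/ml without any but that one and LTA replicate 1 at 4 h (0.41 to 0.62). At 1 µg/ml TPI1 lost its call without any library but control replicate 2 at 4 h and LTA replicate 1 at 24 h (0.50 to 0.78). ALDOC lost it without either control replicate at 24 h, control replicate 1 at 4 h or LTA replicate 2 at either time (1.32 to 2.32), and ANKRD37 without control replicate 1 at 24 h, either control at 4 h, LTA replicate 1 at 4 h or LTA replicate 2 at 24 h (-1.30 to -1.11). At 10 µg/ml PKM lost it without any library but control replicate 2 at 4 h and LTA replicate 2 at 24 h (0.35 to 0.59), GAPDH without control or LTA replicate 1 at 24 h or either LTA replicate at 4 h (0.75 to 0.78), and PGK1 without control replicate 2 at 24 h, control replicate 1 at 4 h, LTA replicate 2 at 24 h or either LTA replicate at 4 h (0.51 to 0.68). Calls were gained at 1 µg/ml by PGK1 (0.69) and GAPDH (0.72) without control replicate 2 at 4 h and by ALDOA (0.79) without control replicate 2 at 24 h, and at 10 µg/ml by PFKP (0.71) without LTA replicate 2 at 4 h. DESeq2 did not call ALDOC (2.21) or ANKRD37 (-1.31) at 1 µg/ml, and RLE size factors gave no call for HK2 (0.60 and 0.54) or for PKM at 10 µg/ml (0.52).

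**Figure D3:**
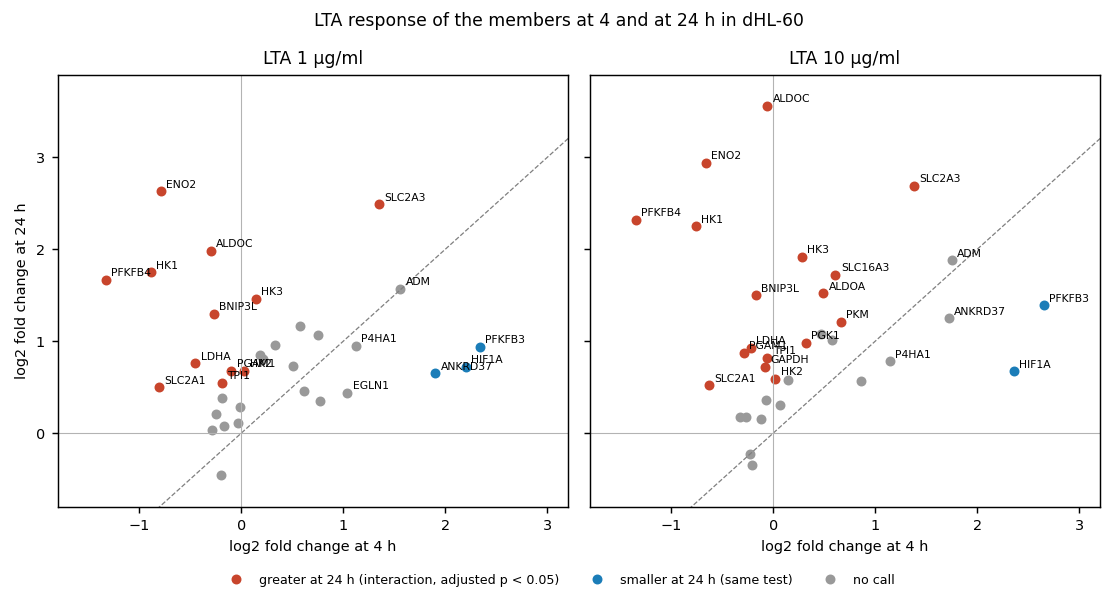
Log2 fold change of LTA over control at 4 h (horizontal) and at 24 h (vertical) for each tested member in dHL-60, at 1 µg/ml (left) and 10 µg/ml (right); the dashed line marks equal responses, and red and blue points differ between the times by the interaction test. SLC2A1, HK1 and PFKFB4 lie left of 0 and above 0, while PFKFB3 and HIF1A lie to the right, below the dashed line.

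At 4 h no member differed between the doses past the threshold. Between 10 and 1 µg/ml at 4 h, 0 members were called in either direction, and 0.00843% of all genes were (0.00843% higher, 0% lower). At an unadjusted p under 0.05 the only member was EGLN1, named after its values were seen (-1.16 ± 0.27, adjusted p = 1), and DESeq2 called 0 members. EGLN1 was called lower with no filter on low counts (-1.15). The differences of SLC2A1 (0.18 ± 0.14), SLC2A3 (0.04 ± 0.16), HK2 (-0.01 ± 0.15), PFKFB3 (0.30 ± 0.16), LDHA (0.23 ± 0.16), HIF1A (0.16 ± 0.20), VEGFA (0.09 ± 0.13) and ADM (0.19 ± 0.16) each had an adjusted p = 1. A missed threshold does not show that the doses act alike.

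At 24 h 2 members were higher at 10 than at 1 µg/ml, with 3.82% of all genes called (3.03% higher, 0.792% lower). These were ALDOC (1.58 ± 0.40, adjusted p = 0.0439) and SLC16A3 (0.65 ± 0.13, adjusted p = 0.0142). ALDOC lost its call without any 1 of the 4 libraries compared (1.34 to 1.85) and with DESeq2 (1.58), and SLC16A3 without LTA replicate 1 at 10 µg/ml (0.58) or either replicate at 1 µg/ml (0.64 and 0.66). A further 8 members had an unadjusted p under 0.05, all of them higher at the larger dose. PFKFB3 was at 0.46 ± 0.16 (adjusted p = 0.13) and PKM at 0.48 ± 0.14 (adjusted p = 0.0786), while SLC2A1 (0.02 ± 0.13), SLC2A3 (0.20 ± 0.16), HK2 (-0.09 ± 0.14), LDHA (0.17 ± 0.16), HIF1A (-0.05 ± 0.21), VEGFA (0.22 ± 0.13) and ADM (0.31 ± 0.16) had adjusted p-values from 0.272 to 0.94.

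Untreated dHL-60 also differed between the times. Of the members, 14 were higher at 24 h and 8 lower, with 40.9% of all genes called (17.8% higher, 23.1% lower). The markers of other cells moved between the same libraries, the promyelocyte sum from 9100 to 11900 CPM up to 17300 to 22500 CPM, the monocyte and macrophage sum from 488 to 653 CPM down to 171 to 178 CPM, and the erythroid and platelet sum from 35.7 to 39.7 CPM down to 1.79 to 1.83 CPM. Their part in the changes of the members was not tested. BNIP3 went from 12.8 and 10.8 CPM to 50.5 and 35.8 CPM (1.87 ± 0.22, adjusted p = 2.73e-05), ANKRD37 from 1.12 and 1.2 CPM to 4.42 and 3.74 CPM (1.80 ± 0.29, adjusted p = 0.000267), and P4HA1 from 24.4 and 20.9 CPM to 81.5 and 56.7 CPM (1.61 ± 0.24, adjusted p = 0.000178). LDHA (1.23 ± 0.16, adjusted p = 5.89e-05), PFKFB4 (0.85 ± 0.26, adjusted p = 0.0183), PDK1 (0.78 ± 0.20, adjusted p = 0.0076) and SLC2A1 (0.49 ± 0.13, adjusted p = 0.00908) were also higher. The control of the 24 h comparisons therefore differed from that of the 4 h comparisons in these genes.

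Lower at 24 h in the untreated cells were HK3 (-1.58 ± 0.19, adjusted p = 3.21e-05), SLC16A3 (-1.22 ± 0.13, adjusted p = 1.22e-05), HK1 (-1.13 ± 0.18, adjusted p = 0.000286), VEGFA (-0.92 ± 0.13, adjusted p = 0.000106), NDRG1 (-0.81 ± 0.16, adjusted p = 0.0014), PFKFB3 (-0.54 ± 0.17, adjusted p = 0.02), SLC2A3 (-0.52 ± 0.16, adjusted p = 0.018) and ADM (-0.49 ± 0.18, adjusted p = 0.0397). HK2 (0.20 ± 0.14, adjusted p = 0.28) and HIF1A (-0.41 ± 0.21, adjusted p = 0.145) were not called. HK3 and SLC16A3 moved beside the neutrophil markers, whose sums fell between the same libraries as given above, and the part of those markers was not tested. Calls were lost for ADM without either 24 h library or replicate 1 at 4 h (-0.54 to -0.27), for PFKFB3 without any library but replicate 1 at 4 h (-0.54 to -0.41), for SLC2A3 without replicate 2 at 24 h (-0.38) or replicate 1 at 4 h (-0.42), for SLC2A1 without replicate 2 at 24 h (0.43), for PFKFB4 without replicate 1 at 24 h (0.48) or at 4 h (0.77), and for PDK1 without replicate 1 at 24 h (0.57). The counts fell to 9 higher members without replicate 1 at 24 h or replicate 2 at 4 h.

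**Figure D4:**
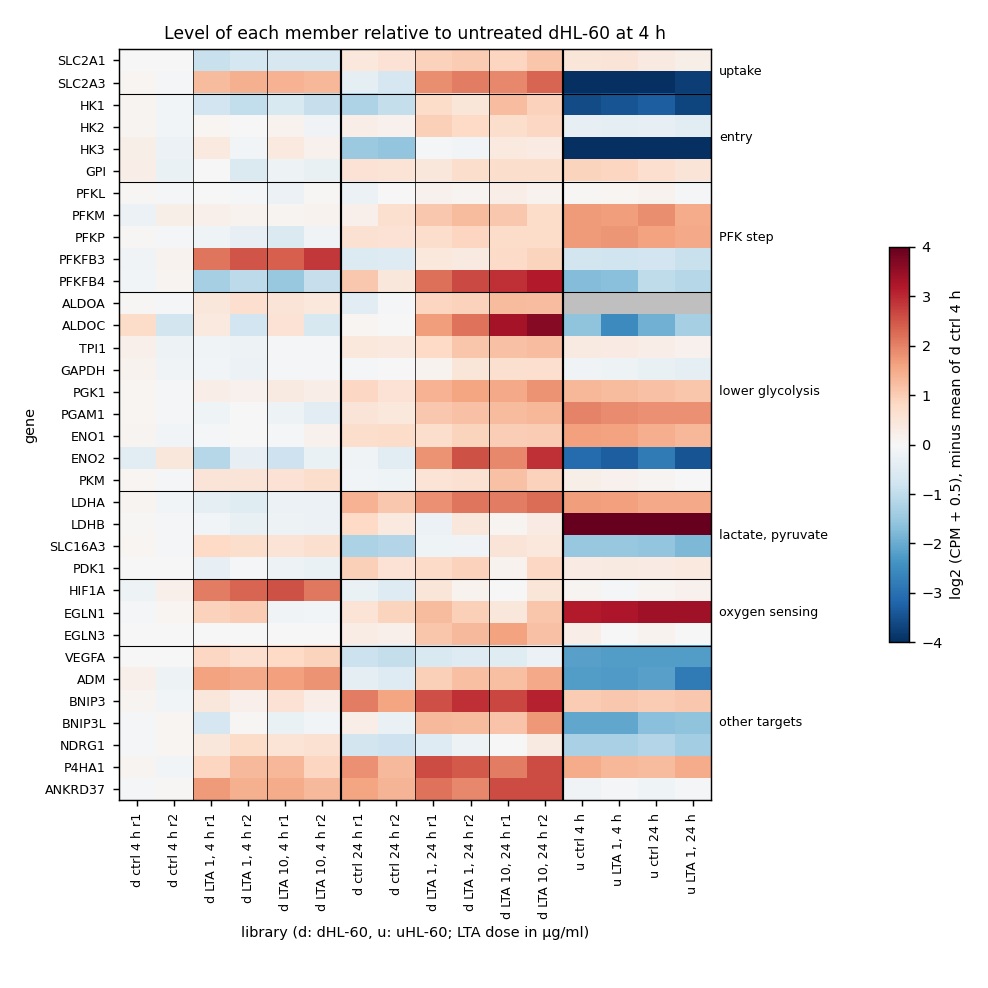
Level of each member (rows, by role) in each of the 16 libraries (columns) as log2 (CPM + 0.5) minus the mean of untreated dHL-60 at 4 h; red is higher, blue lower, and colours stop at 4 in either direction. The 24 h dHL-60 libraries with LTA are red for most rows, and ALDOA is grey in uHL-60 because it is not comparable between the cell states.

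Over the 6 dHL-60 groups the highest group mean fell in 10 µg/ml at 24 h for 21 of the 34 members and in 1 µg/ml at 24 h for 6 more. The peak group was not counted over all genes, so these counts cannot set the members apart from other genes. PFKFB3, HIF1A, VEGFA and ADM peaked at 10 µg/ml for 4 h, SLC16A3 and NDRG1 at 1 µg/ml for 4 h, and LDHB alone in untreated cells at 24 h. The span from the lowest to the highest group mean was widest for PFKFB4 (23.1-fold), ALDOC (12.7-fold) and ENO2 (10.4-fold) and narrowest for PFKL (1.26-fold). EGLN3, at 0 in its lowest group, has no such ratio.

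Per length of exon, which allows genes to be compared, GAPDH stood highest in untreated dHL-60 at 4 h, at 2640 ± 396 CPM per kilobase (SD, n = 2). PKM (531 ± 45.6), ENO1 (491 ± 49.5) and TPI1 (348 ± 69.9) followed, and the SDs of PKM and ENO1 overlap. PFKM (0.546 ± 0.138), EGLN1 (0.627 ± 0.0516) and ANKRD37 (1.02 ± 0.0459) were the lowest of those detected, on the same scale.

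The shares of isoforms differed between groups. Within the pair of glucose transporters, SLC2A1 made up 25 and 28% of the level per kilobase in the untreated dHL-60 libraries at 4 h and 7.47 to 8.36% in the 4 treated ones. At 24 h its share was 38.8 and 45.9% without LTA and 13.4 to 16% with it. In uHL-60 it was 85.8 to 92% in all 4 libraries. PFKFB4 made up 17.7 and 18.1% of the PFKFB3 and PFKFB4 pair in untreated dHL-60 at 4 h, and 1.19 to 1.68% with LTA. At 24 h it made up 30.5 and 41.2% without LTA and 44.3 to 53.3% with it. HK3 was the leading hexokinase in untreated dHL-60 at 4 h (61.4 and 65.4%), while HK2 led in untreated dHL-60 at 24 h (58.5 and 59.3%, with HK3 at 36 and 36.5%) and in uHL-60 (92.4 to 93.6%). LDHB made up 64.3 to 66.7% of the lactate dehydrogenase pair in uHL-60 and at most 14.6% in any dHL-60 library. These shares are given as values, with no test.

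**Figure D5:**
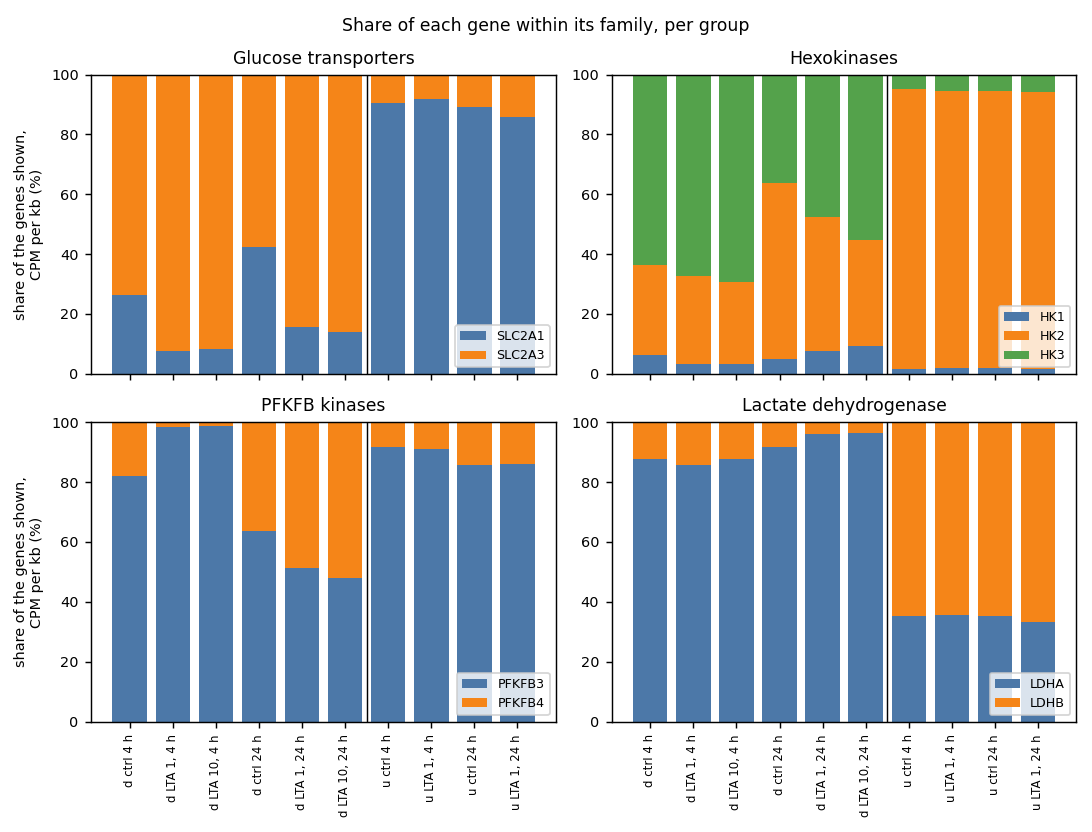
Share of each gene within its family (percent of summed CPM per kilobase of exon, from group means) in the 10 groups, for glucose transporters, hexokinases, PFKFB kinases and lactate dehydrogenase. SLC2A1, HK2 and LDHB take the largest share of their families in uHL-60 (right of the line), and SLC2A3 and LDHA do so in every dHL-60 group.

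To ask how the set differs with differentiation, the 6 untreated libraries of both cell states were compared in a fit that also held the time. Of 32 members tested, 11 were higher in dHL-60 and 8 lower, with 57.4% of all genes called (29.1% higher, 28.3% lower). A batch shared by all uHL-60 libraries, a difference in counting as for ALDOA, and the cell state cannot be told apart. Of the 23 reference genes, 5 were higher and 8 lower in this comparison. Among them SDHA was at 9.92 to 13.6 CPM in untreated dHL-60 and at 159 and 160 CPM in untreated uHL-60. Whether other genes are counted differently between the cell states was not tested. In uHL-60 the 6 eosinophil and basophil markers summed to 4180 to 4530 CPM, nearly all of it PRG2, against at most 21.4 CPM in any dHL-60 library, and the 7 promyelocyte markers to 24000 to 26700 CPM. The part of these markers was not tested.

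Higher in dHL-60 were HK3 (4.68 ± 0.44, adjusted p = 4.66e-05), ENO2 (4.40 ± 0.55, adjusted p = 0.000229), SLC2A3 (3.87 ± 0.24, adjusted p = 3.96e-06), HK1 (3.04 ± 0.36, adjusted p = 0.000165), ALDOC (2.08 ± 0.45, adjusted p = 0.00387), ADM (2.07 ± 0.26, adjusted p = 0.000211) and VEGFA (1.71 ± 0.23, adjusted p = 0.000316). SLC2A3 was at 77.1 to 129 CPM in the 4 untreated dHL-60 libraries and at 6.60 and 6.92 CPM in uHL-60. HK3 was at 71.8 to 256 CPM against 4.25 and 5.06 CPM. PFKFB4, BNIP3L, SLC16A3 and NDRG1 were the other higher members, at 2.0, 1.91, 0.87 and 0.80 on the log2 scale.

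Lower in dHL-60 were LDHB (-5.04 ± 0.24, adjusted p = 9.11e-07), EGLN1 (-3.06 ± 0.21, adjusted p = 7.99e-06), PFKM (-1.73 ± 0.28, adjusted p = 0.000854), PGAM1 (-1.71 ± 0.19, adjusted p = 0.00013), PFKP (-1.42 ± 0.20, adjusted p = 0.000387), ENO1 (-1.24 ± 0.23, adjusted p = 0.00185), LDHA (-1.05 ± 0.30, adjusted p = 0.0148) and PGK1 (-0.95 ± 0.23, adjusted p = 0.00668). LDHB was at 24.2 to 44.1 CPM in untreated dHL-60 and at 1050 and 938 CPM in uHL-60, and EGLN1 at 4.19 to 8.59 against 44.2 and 51.6 CPM. SLC2A1 (-0.23 ± 0.20), HK2 (0.39 ± 0.18), PFKFB3 (0.46 ± 0.20) and HIF1A (-0.33 ± 0.20) were not called, with adjusted p-values from 0.0705 to 0.342. Under upper-quartile scaling (shift of the all-gene median 0.13) HK2 (0.52) and PFKFB3 (0.59) were called higher.

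Some of these differences depended on the time, since untreated dHL-60 changed between 4 and 24 h. Without the uHL-60 library at 4 h the calls of LDHA (-0.28), PGK1 (-0.49), SLC16A3 (0.35) and NDRG1 (0.38) were lost, and ANKRD37 (2.04) and BNIP3 (0.83) were called higher. Without the uHL-60 library at 24 h BNIP3 (-1.08), P4HA1 (-1.56), GPI (-0.91) and SLC2A1 (-0.55) were called lower and PFKFB3 (0.71) higher. BNIP3 thus changed direction with the library left out (-0.20 over all 6). LDHA also lost its call without dHL-60 replicate 1 (-0.98) or 2 (-0.85) at 4 h, and SLC16A3 without replicate 2 at 4 h (0.85), while P4HA1 was called lower without dHL-60 replicate 1 at 24 h (-0.90).

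In uHL-60 LTA at 1 µg/ml moved none of the set past the threshold. Over both times 0 of 32 tested members were called, with 0.248% of all genes called (0.115% higher, 0.133% lower), 0 members at an unadjusted p under 0.05 and 0 by DESeq2. This test rests on 4 libraries and 1 residual degree of freedom. SLC2A1 was at -0.05 ± 0.09, SLC2A3 at 0.04 ± 0.16, HK2 at -0.07 ± 0.08, PFKFB3 at -0.08 ± 0.10, LDHA at 0.01 ± 0.07, HIF1A at -0.05 ± 0.09, VEGFA at -0.03 ± 0.10 and ADM at -0.35 ± 0.22, each with an adjusted p = 1. Within a time there is 1 library a group and no test. Among the 26 members with at least 100 control counts, the ratio of LTA to control ran from 0.838 (SLC2A3) to 1.05 (BNIP3) at 4 h and from 0.752 (PFKM) to 1.23 (SLC2A3) at 24 h. PFKFB3 was at 22.4 CPM with LTA and 23.3 CPM without at 4 h, and HIF1A at 33.4 and 38.2 CPM.

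The response to 1 µg/ml was compared directly between the cell states. At 4 h 5 members had a greater response in dHL-60 than in uHL-60 and 1 a smaller one, with 10.3% of all genes called (5.43% greater, 4.91% smaller). They were PFKFB3 (2.39 ± 0.29, adjusted p = 0.000315), HIF1A (2.38 ± 0.36, adjusted p = 0.00102), SLC2A3 (1.59 ± 0.32, adjusted p = 0.00568), ADM (1.59 ± 0.35, adjusted p = 0.0103) and VEGFA (0.82 ± 0.23, adjusted p = 0.0323), and in the other direction SLC2A1 (-0.85 ± 0.23, adjusted p = 0.033). HK2 (0.06 ± 0.24) and LDHA (-0.44 ± 0.27) were not called (adjusted p = 0.961 and 0.348). SLC2A1 lost its call without control replicate 1 (-0.82) or 2 (-0.82) or LTA replicate 1 (-0.74) of dHL-60, and VEGFA without control replicate 2 (0.81) or LTA replicate 1 (0.77) and under upper-quartile scaling (0.72, with an all-gene median shifted by -0.10). P4HA1 was called without control replicate 1 (1.45) or LTA replicate 1 (1.52), and SLC16A3 without control replicate 1 (0.87), and DESeq2 called both (1.33 and 0.78).

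At 24 h the response of 4 members was greater in dHL-60, with 1.63% of all genes called (1.35% greater, 0.278% smaller). These were ADM (2.32 ± 0.37, adjusted p = 0.00564), HK1 (2.20 ± 0.41, adjusted p = 0.0149), SLC2A3 (2.17 ± 0.31, adjusted p = 0.00341) and SLC16A3 (1.27 ± 0.22, adjusted p = 0.0104). A further 15 members had an unadjusted p under 0.05, all in the same direction. PFKFB3 (1.05 ± 0.29), HK2 (0.79 ± 0.24), LDHA (0.73 ± 0.27), SLC2A1 (0.62 ± 0.23), HIF1A (0.63 ± 0.36) and VEGFA (0.34 ± 0.23) were not called (adjusted p from 0.0961 to 0.574). The count of called members was 9 with DESeq2 and 10 with no filter on low counts. Each lone uHL-60 library was taken to vary like the dHL-60 pairs. At 24 h the uHL-60 library with LTA held 38 ADM counts against 78 in its control (ratio 0.591). For HK1 it held 33 counts against 55 (ratio 0.728). These lower uHL-60 values add to the differences given for ADM and HK1.

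Other genes of these pathways are given by list, to be read against the 38.7 and 41.3% of all genes called at 4 h and the 21.2 and 42.6% called at 24 h, with 1 and 10 µg/ml. Of 12 other HIF pathway proteins, 10 were tested, and 6 were higher and 1 lower at 4 h at either dose (70% called). EPAS1 (HIF2A), the sister of HIF1A, was higher by 2.79 ± 0.72 and 2.96 ± 0.71 at 4 h, from a mean of 0.494 CPM to 3.28 and 3.69 CPM. SIAH2, a ubiquitin ligase that destroys EGLN proteins, rose by 2.49 ± 0.16 and 2.62 ± 0.16, and VHL, which marks hydroxylated HIF1A for destruction, by 1.27 ± 0.16 and 1.31 ± 0.16. CITED2, an inhibitor of HIF1A, was lower (-0.48 ± 0.14 and -0.72 ± 0.14). At 24 h, 0 of the 10 were called at 1 µg/ml (2 higher at an unadjusted p under 0.05) and 1 at 10 µg/ml, SIAH2 (0.52 ± 0.15), shares below that of all genes.

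A wider list of 40 hypoxia genes had 32 tested, of which 11 were higher and 6 lower at 4 h with 1 µg/ml, and 12 and 8 with 10 µg/ml. At 24 h 15 were higher and 2 lower, and 18 and 2. The shares called were 53.1 and 62.5% at either time. DDIT4, an inhibitor of mTOR signalling, was higher in all 4 comparisons, by 2.35 ± 0.24 and 2.65 ± 0.24 at 4 h and by 1.49 ± 0.23 and 2.17 ± 0.23 at 24 h. MIR210HG, the host transcript of a hypoxia-induced microRNA, went from a mean of 9.25 CPM to 40.9 and 58.7 CPM at 24 h (2.14 ± 0.25 and 2.68 ± 0.25). MXI1 (-1.19 ± 0.14 at both doses), GPD1L (-1.25 ± 0.15 and -1.26 ± 0.15) and ZNF395 (-1.95 ± 0.22 and -1.78 ± 0.22) were lower at 4 h. GPD1L was lower at 24 h too (-0.48 ± 0.13 at 1 µg/ml and -1.18 ± 0.13 at 10 µg/ml).

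Among 26 other glucose transporters and glycolytic isoforms, 14 were tested. At 4 h 2 were higher at either dose, and 1 and 2 were lower, and at 24 h 4 were higher at either dose, and 1 and 3 lower. The shares called, 21.4 and 28.6% at 4 h and 35.7 and 50% at 24 h, lay below those of all genes at 4 h and above them at 24 h. SLC2A6 (GLUT6), a transporter of intracellular membranes, went from a mean of 48.4 CPM to 688 and 685 CPM at 4 h (3.83 ± 0.24 and 3.84 ± 0.24, adjusted p = 8.71e-08 and 7.61e-08). At 24 h its mean was 2.82 CPM without LTA, 47.6 CPM at 1 µg/ml and 122 CPM at 10 µg/ml (4.06 ± 0.28 and 5.43 ± 0.28). FBP1, the gluconeogenic enzyme that opposes phosphofructokinase, was lower in all 4 comparisons (-1.70 and -2.20 at 4 h, -1.56 and -1.73 at 24 h). SLC16A1 (MCT1), another lactate carrier, was lower at 10 µg/ml for 24 h (-1.11 ± 0.22), where SLC16A3 was higher.

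The routes that leave glycolysis held genes called in both directions. Of 13 tested genes of pyruvate and mitochondrial entry, 2 were higher and 4 lower at 4 h with 1 µg/ml, and 2 and 3 with 10 µg/ml. At 24 h 0 were higher and 1 lower (1 and 2 at an unadjusted p under 0.05), and 2 and 4. The shares called were 46.2 and 38.5% at 4 h and 7.69 and 46.2% at 24 h. PDHX, a subunit of pyruvate dehydrogenase, was higher at 4 h (0.94 ± 0.18 and 1.07 ± 0.18) and PDK3, a kinase that inhibits it, lower (-1.13 ± 0.18 and -1.24 ± 0.19). Of the 8 pentose phosphate genes, 1 was higher and 3 lower at 4 h with 1 µg/ml, 1 and 2 with 10 µg/ml, 1 and 0 at 24 h with 1 µg/ml (2 lower at an unadjusted p under 0.05), and 2 and 2 with 10 µg/ml. The shares called were 50 and 37.5% at 4 h and 12.5 and 50% at 24 h. PGD, a dehydrogenase of that pathway, went from a mean of 144 CPM to 265 and 530 CPM at 24 h (0.89 ± 0.13 and 1.90 ± 0.14).

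Of 23 genes often used as references, GPI included, 3 were higher and 2 lower at 4 h with 1 µg/ml, 4 and 2 with 10 µg/ml, 1 and 2 at 24 h with 1 µg/ml, and 6 and 0 with 10 µg/ml (5 lower at an unadjusted p under 0.05). The shares called were 21.7 and 26.1% at 4 h and 13 and 26.1% at 24 h. Each lay below the share of all genes (38.7, 41.3, 21.2 and 42.6% in the same order). ACTB was higher at 24 h by 0.94 ± 0.16 and 1.51 ± 0.16, from a mean of 10600 CPM to 20200 and 29800 CPM. The list's median was 0.01 to 0.11 on the log2 scale in the 4 comparisons.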

How the data were processed

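Messenger RNA libraries (TruSeq Stranded, per the labels' protocols) were made from 12 dHL-60 and 4 uHL-60 samples. The authors deposited raw counts per gene symbol, made with fastp 0.20.0, HISAT2 2.1.0 and featureCounts 2.0.1 on GRCh38, per the submitters' processing notes. Whether the counting used strand is not stated, so overlapping and antisense genes are uncertain. In the table the uHL-60 columns follow another sort order of the symbols. They were realigned by sorting, which moved 1343 symbols and 0 members and raised the correlation of the moved symbols between cell states from 0.25 to 0.9, across symbols.

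Counts were scaled by TMM, filtered by group and fitted in edgeR 4.0.16, with its quasi-likelihood F test and Benjamini-Hochberg adjustment over all genes (threshold 0.05), in R 4.3.3, with limma 3.58.1. The scripts were tested on simulated data. Standard errors are the log2 fold change divided by the root of F. Comparisons within dHL-60 used its 12 libraries, the untreated comparison 6, the uHL-60 comparison 4 and the difference of responses 16. Alternatives were upper-quartile and RLE scaling, DESeq2 1.42.0, no filter, a replicate block (in all dHL-60 libraries and, added after seeing the data, at 4 h alone), symbols at the same position in both orders, and leaving out each library. The members and lists were chosen with earlier results of these data known. Named with full statistics were the up to 6 called members with the largest change in each direction, always SLC2A1, SLC2A3, HK2, PFKFB3, LDHA, HIF1A, VEGFA and ADM, and of each other list up to 3 in each direction, of which some are not reported here. Other members are named to account for all 34. Intervals and floors cover counting error only.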

Additional observations from a re-analysis of the deposited data

Results flagged for a closer look

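These results are listed because an interaction test found that the response to LTA differed between times or between cell states. Between 24 and 4 h in dHL-60, the response of 15 members differed at 1 µg/ml and that of 19 at 10 µg/ml. Of all genes, 20.7 and 33.7% were called in these comparisons. At 1 µg/ml SLC2A1 (1.30), HK1 (2.64), PFKFB4 (3.0) and LDHA (1.21) were called lower at 4 h and higher at 24 h, with the difference on the log2 scale in parentheses. At 10 µg/ml the same held for SLC2A1 (1.14), HK1 (3.02) and PFKFB4 (3.67). Between dHL-60 and uHL-60, the response to 1 µg/ml differed for 6 members at 4 h and for 4 members at 24 h, with 1 uHL-60 library in each group. The shares of all genes called there were 10.3 and 1.63%.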

How the results depend on the processing

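Among the counts of called members, at 10 µg/ml for 4 h the lower count was 5 with upper-quartile scaling in place of 3. Without a filter on low counts, 1 member was lower at 10 than at 1 µg/ml at 4 h in place of 0, and 7 were higher at 24 h in place of 2. The response at 24 h was greater in dHL-60 than in uHL-60 for 9 members with DESeq2 and 10 with no filter, in place of 4. The cause was not tested, beyond the number of genes that each setting tests. Leaving out 1 library gave 0 to 1 lower members at 24 h with 1 µg/ml and with 10 µg/ml, 0 to 1 higher members between doses at 24 h, 9 to 12 higher members between 24 and 4 h without LTA, and 0 to 1 members with a smaller response in dHL-60 than in uHL-60 at 4 h. No named member that was called changed direction, while uncalled values near 0 did with a library left out, such as ADM in the difference of responses between times (-0.21 to 0.20 at 1 µg/ml, -0.09 to 0.32 at 10 µg/ml). BNIP3 between the untreated cell states is not among the values counted here. It changed direction with the uHL-60 library left out, as given above. Under settings other than leaving out a library, 807 values of named members kept their side of the threshold, 6 lost the call and 4 gained it. With a library left out 679 kept it, 67 lost the call and 2 gained it. Direction was compared only for values called in at least 1 of the fits compared. Over all genes, the counts at 1 µg/ml for 24 h fell from 1651 higher and 862 lower to 917 and 222 without LTA replicate 1. Between doses at 24 h, 359 higher and 94 lower genes became 546 and 198 with DESeq2 and 771 and 583 with no filter, and as few as 45 higher without replicate 2 at 1 µg/ml and 2 lower without replicate 1 at 10 µg/ml. At 4 h between doses, 1 higher and 0 lower became 2 higher with DESeq2 and 9 and 13 with no filter. In uHL-60, 13 higher and 15 lower became 0 and 1 with DESeq2. The greater and smaller responses in dHL-60 than in uHL-60 at 24 h, 170 and 35 genes, became 317 and 74 with DESeq2, 491 and 161 with no filter, and 77 and 11 without dHL-60 LTA replicate 1. With 1 library left out, the lower counts fell from 2524 to 1536 at 10 µg/ml for 4 h (LTA replicate 1) and from 2259 to 1470 at 24 h (control replicate 1), and the higher count between 24 and 4 h without LTA from 2114 to 1274 (replicate 1 at 24 h). The counts of smaller responses at 24 h than at 4 h fell from 879 to 547 at 1 µg/ml (LTA replicate 2 at 24 h) and from 1662 to 1049 at 10 µg/ml (control replicate 1 at 24 h).

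The labels tie no libraries across groups by replicate number, and same-numbered libraries deviated together at r over 0.1 in 7 of 15 group pairs (-0.38 to 0.52), among them all 3 pairs of 4 h groups (0.11 to 0.52). A block among the 4 h libraries alone, added after seeing the data, left the counts of called members at 4 h at 12 higher and 4 lower with 1 µg/ml, 11 and 3 with 10 µg/ml and 0 between doses, and changed no call of a member. With the replicate as a block in all dHL-60 groups, 24 members were higher at 1 µg/ml for 24 h in place of 22, and 3 were higher between doses at 24 h in place of 2, where 154 of all genes were lower in place of 94. Leaving out a library was not run for the uHL-60 comparison, which has no residual degree of freedom then, nor for the lone uHL-60 libraries in the difference of responses. With 2 libraries a group, and 1 in uHL-60, the spread is known poorly, and low members such as PFKM, ANKRD37 and EGLN3 rest on few counts.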
